A study of Mus musculus with 3 samples.

Results

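This account describes 5-hydroxymethylcytosine (5hmC) over 10 mouse genes for neuronal RNA-binding and splicing regulators: Rbfox1, Rbfox2, Rbfox3, Celf2, Celf4, Elavl2, Elavl4, Khdrbs2, Nova1 and Msi2. They were chosen by name, with earlier results of these data known, and their levels come from the 10 kb bins that overlap each RefSeq gene body, with 100 kb on either side as flanks. All 10 were measured, in 480 of the 262974 bins that had a value in all libraries, and they are 10 of 6665 protein-coding genes of at least 5 bins. No bin of the 10 genes was listed at 0. The study mapped 5hmC in DNA of mouse cerebellum in 3 libraries, 1 per group: a control by DDD-seq, a library from mice under chronic sleep deprivation by DDD-seq, and an ACE-seq library whose treatment label is also control. Values given in threes follow this order. In DDD-seq, 5hmC is protected by glycosylation and the other cytosines are deaminated by SsdAcat. ACE-seq is a related method built on another deaminase, although the labels give it the same protocol text. The strain, age, sex and number of animals and the length of the deprivation are not given in the sources used here.

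5hmC is made from 5-methylcytosine by the TET enzymes, is abundant in neurons, and lies mainly over gene bodies. The RNA-binding proteins described here set which exons neurons include and how long and where their mRNAs are translated. Many are themselves encoded by long genes with several promoters. DNA from whole tissue mixes all cells of the cerebellum, so a level of 5hmC is an average over cell types and does not measure expression. A different mix of cell types and a different level per cell cannot be told apart. A check of the tissue by expressed markers was therefore not possible. Marker genes of cerebellar cell types only gave levels for orientation: in the DDD-seq control the median was 4.26% over 4 measured genes of granule cells, 2.04% over 6 of Purkinje cells, 1.66% over 4 of interneurons and 1.64% over 3 of oligodendrocytes. It was 1.56% over 3 genes of astrocytes and Bergmann glia, 1.63% over 2 of microglia and 1.16% over 5 of endothelium. The ranges overlapped. Genes of granule cells, 4 of 12 listed, ran from 1.59% to 6.52%. Those of Purkinje cells ran from 0.87% to 3.25% and those of endothelium from 1.11% to 2.83%.

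Several of the genes have more than 1 annotated start, and the profiles of Celf2 and Elavl4 changed near an internal one. RefSeq promoter windows of GRCm38.p6 (250 bases before to 50 after a start) were matched for 8 of the 10 genes, all but Rbfox2 and Celf4. Those of Celf2, Elavl4 and Rbfox1 are shown because these genes have an internal start far from the first. Of the 3 internal starts of Celf2, the one beside its highest bins is shown. They are written in the direction of the gene, in lower case, with each CG dinucleotide, the main site of cytosine methylation, in capitals.
Celf2, first start (chr2:7396149-7396448, minus strand): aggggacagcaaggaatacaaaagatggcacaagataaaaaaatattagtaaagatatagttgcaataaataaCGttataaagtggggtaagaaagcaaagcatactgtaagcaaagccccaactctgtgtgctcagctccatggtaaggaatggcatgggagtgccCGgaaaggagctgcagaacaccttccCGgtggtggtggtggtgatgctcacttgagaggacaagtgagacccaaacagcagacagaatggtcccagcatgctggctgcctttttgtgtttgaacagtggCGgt
Celf2, internal start (chr2:6871986-6872285, minus strand): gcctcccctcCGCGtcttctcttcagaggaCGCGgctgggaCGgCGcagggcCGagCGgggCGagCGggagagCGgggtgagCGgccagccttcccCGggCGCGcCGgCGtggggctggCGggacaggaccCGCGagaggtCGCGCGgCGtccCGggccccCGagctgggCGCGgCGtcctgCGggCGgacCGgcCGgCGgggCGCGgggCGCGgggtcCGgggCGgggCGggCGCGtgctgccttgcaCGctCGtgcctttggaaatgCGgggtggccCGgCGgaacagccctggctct
Elavl4, first start (chr4:110351862-110352161, minus strand): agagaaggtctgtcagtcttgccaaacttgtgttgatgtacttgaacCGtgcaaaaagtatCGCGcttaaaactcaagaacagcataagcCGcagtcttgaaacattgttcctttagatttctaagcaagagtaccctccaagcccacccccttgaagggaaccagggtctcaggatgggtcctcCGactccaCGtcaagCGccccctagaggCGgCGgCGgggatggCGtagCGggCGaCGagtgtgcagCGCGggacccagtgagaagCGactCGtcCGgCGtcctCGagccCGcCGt
Elavl4, internal start (chr4:110287478-110287777, minus strand): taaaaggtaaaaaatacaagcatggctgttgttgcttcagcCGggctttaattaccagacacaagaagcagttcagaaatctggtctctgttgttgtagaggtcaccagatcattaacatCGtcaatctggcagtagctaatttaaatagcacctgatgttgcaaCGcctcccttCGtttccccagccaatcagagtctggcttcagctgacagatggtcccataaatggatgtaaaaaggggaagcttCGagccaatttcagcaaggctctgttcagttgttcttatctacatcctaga
Rbfox1, first start (chr16:5884543-5884842, plus strand): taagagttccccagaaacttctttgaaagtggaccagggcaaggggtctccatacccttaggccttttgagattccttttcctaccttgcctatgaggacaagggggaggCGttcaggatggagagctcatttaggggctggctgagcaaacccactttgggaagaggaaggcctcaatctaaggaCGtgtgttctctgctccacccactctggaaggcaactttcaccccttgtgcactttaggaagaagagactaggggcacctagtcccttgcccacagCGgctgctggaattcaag
Rbfox1, internal start (chr16:7069585-7069884, plus strand): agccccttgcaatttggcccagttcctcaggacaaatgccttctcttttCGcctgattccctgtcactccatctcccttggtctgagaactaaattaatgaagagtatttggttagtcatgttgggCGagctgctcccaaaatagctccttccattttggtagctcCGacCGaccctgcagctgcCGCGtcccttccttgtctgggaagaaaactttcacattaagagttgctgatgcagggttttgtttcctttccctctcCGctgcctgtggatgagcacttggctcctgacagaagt

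The windows differed widely in CG content. The first start of Celf2 had 4 CG and the internal start shown 48, a number reached by 1.22% of the 32851 windows in the table. Celf2 has 2 further internal starts, 315 and 675 kb from the 5′ end, with 6 and 8 CG. In Elavl4 the order was the other way: the first start had 23 CG, a number reached by 21.5% of windows, and the internal start 5, reached by 62.0%. Rbfox1 had few at both, with 3 at the first and 7 at the internal start. Because CG reads the same on both strands, the counts do not depend on direction.

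All 10 genes had more 5hmC than the mean of their flanks in every library, and all lay above the median gene. Their gene-body level, the mean over bins, had a median over the 10 genes of 2.22% in control DDD-seq, 2.26% after sleep deprivation and 2.18% by ACE-seq. The medians over all 6665 genes were 1.54%, 1.53% and 1.49% in the same order, and those over the 1092 genes of at least 20 bins were 1.74%, 1.73% and 1.69%. All 10 genes exceeded the all-gene median in all 3 libraries, against a background of 42.1% of genes. Because the genes were chosen with earlier results known, this count is a description only. Khdrbs2, of 54 bins, lay below the median of genes of at least 20 bins in every library. A body level above the flank was found for 60.7%, 60.9% and 61.1% of all genes in the 3 libraries. The errors given here are standard errors (SE) over the bins of a gene. They describe unevenness inside the gene, not differences between animals, and with 1 library per group no test and no p-value is possible.

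**Figure D1:**
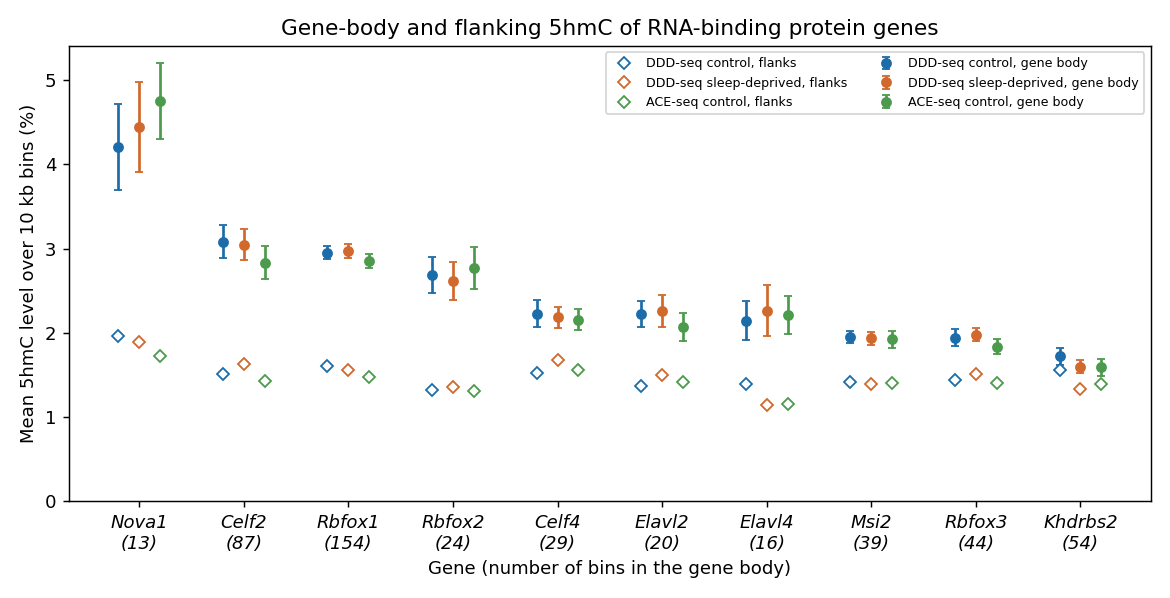
Mean 5hmC level in percent (vertical axis) for each gene, ordered by the DDD-seq control, with the number of bins in brackets; filled circles are gene bodies with SE over bins, open diamonds the mean of the 100 kb flanks, and colours the 3 libraries. Nova1 lay highest at 4.21% to 4.75%, Khdrbs2 lowest at 1.59% to 1.72%, and every gene body lay above the mean of its own flanks.

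Nova1 had the highest level of the 10. It encodes a KH-domain splicing factor of neurons, known as the antigen of a paraneoplastic movement disorder, and lies at chr12:46697895-46819480. Its level was 4.21% ± 0.51 in control DDD-seq, 4.44% ± 0.53 after sleep deprivation and 4.75% ± 0.45 by ACE-seq (SE over 13 bins). It ranked 74th, 58th and 32nd of 6665 genes in these libraries. The flanks had 1.96%, 1.89% and 1.73%, so that the body exceeded them 2.15, 2.35 and 2.75 times. The 13 bins were uneven, and high and low bins alternated: from the 5′ end, the bins at 10 and 20 kb had 5.20% and 7.19% in the DDD-seq control, those at 30 and 40 kb 3.08% and 2.5%, and that at 50 kb 6.30%. Between 70 and 80 kb the level went from 2.51% to 6.17% in control DDD-seq and from 1.85% to 6.53% after sleep deprivation. The bin just upstream of the gene, outside its body, was also high, with 5.30%, 4.47% and 3.85%, whereas the bin of the annotated start had 2.67%, 2.76% and 3.30%.

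Rbfox1, Rbfox2 and Rbfox3 encode the RBFOX family, which binds a short intronic element beside alternative exons, and Rbfox3 was the lowest of them. Rbfox1, the longest gene of the set (chr16:5884793-7412480), had 2.95% ± 0.08 in control DDD-seq, 2.97% ± 0.08 after sleep deprivation and 2.85% ± 0.09 by ACE-seq (SE over 154 bins). Rbfox2 (chr15:77078990-77308434) had 2.69% ± 0.21, 2.62% ± 0.23 and 2.77% ± 0.25 over 24 bins. Rbfox3, which encodes the neuronal nuclear marker NeuN (chr11:118489760-118911597), had 1.94% ± 0.10, 1.98% ± 0.08 and 1.84% ± 0.09 over 44 bins. Rbfox1 exceeded Rbfox3 by 1.01 ± 0.13, 0.99 ± 0.12 and 1.02 ± 0.12 points (SE from the bins of both genes), and Rbfox2 exceeded it by 0.75 ± 0.24, 0.64 ± 0.24 and 0.93 ± 0.27 points. Rbfox1 and Rbfox2 differed by 0.26 ± 0.23, 0.35 ± 0.24 and 0.08 ± 0.27 points, less than 2 SE in each library. By medians over bins Rbfox2 lay between the others in the DDD-seq control, with 2.35% against 2.96% at Rbfox1 and 1.78% at Rbfox3. Against its flanks Rbfox2 stood out more (2.04, 1.93 and 2.11 times) than Rbfox3 did (1.35, 1.31 and 1.31 times), and Rbfox1 had 1.84, 1.91 and 1.93 times. Rbfox3 shared 1 bin with the glycosidase gene Engase.

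The level was not even along Rbfox1. In 5 equal parts from the 5′ end, the DDD-seq control had 2.31%, 2.58%, 3.44%, 3.51% and 2.90%. The sleep-deprived library had 2.503%, 2.69%, 3.31%, 3.47% and 2.88%, and the ACE-seq control 2.28%, 2.44%, 3.29%, 3.39% and 2.87%. All 3 libraries were lowest in the first part and highest in the fourth. The highest stretch of 5 bins in the DDD-seq control was chr16:6840001-6890000, with 4.52%, and the other libraries had 4.49% and 4.62% there. This stretch lies upstream of the internal start, which falls 1185 kb from the 5′ end. Levels on both sides of that start were alike: 2.95% over the 118 bins upstream and 2.90% over the 35 bins downstream in the DDD-seq control. Its own bin had 4.34%, 3.93% and 3.25%, whereas the bin of the first start had 1.55%, 1.19% and 0.997%, below the gene-body level in every library. In the DDD-seq control Rbfox3 was highest in the third of 5 parts, with 2.34%, and lowest in the last, with 1.55%.

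Celf2 and Celf4 encode CELF proteins, which regulate splicing, stability and translation of mRNAs. Celf2 (chr2:6539694-7396341) had 3.08% ± 0.19 in control DDD-seq, 3.05% ± 0.19 after sleep deprivation and 2.83% ± 0.19 by ACE-seq (SE over 87 bins), 2.04, 1.87 and 1.99 times its flanks. Celf4, whose loss is known to cause seizures in mice (chr18:25477620-25754520), had 2.23% ± 0.16, 2.19% ± 0.12 and 2.16% ± 0.13 over 29 bins, 1.46, 1.30 and 1.38 times its flanks. Celf2 exceeded Celf4 by 0.86 ± 0.25, 0.86 ± 0.22 and 0.68 ± 0.23 points. The mean of Celf2 hid a steep contrast inside the gene, and its bins had the largest spread of the 10 genes relative to their mean in each library (58.7%, 56.6% and 64.2%). Celf4 was flatter, with parts between 1.92% and 2.87% in the DDD-seq control. Its highest bin, chr18:25740001-25750000, had 5.57%, 4.07% and 3.86%, and the neighbouring last bin 1.11%, 1.21% and 1.08%.

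Along Celf2 the 5′ part was low and the 3′ part high, and the change fell at the CG-rich internal start. In 5 equal parts from the 5′ end, the DDD-seq control had 2.10%, 2.10%, 2.67%, 5.30% and 3.35%. The sleep-deprived library had 1.98%, 2.12%, 2.92%, 5.01% and 3.33%, and the ACE-seq control 1.75%, 1.97%, 2.43%, 5.13% and 3.0%. The fourth part held the peak in all 3. The internal start with 48 CG lies 524 kb from the 5′ end, and its own bin, chr2:6870001-6880000, was low, with 1.76%, 1.38% and 1.32%. Upstream of it, 52 bins had a mean of 2.29%, 2.35% and 2.06%, and downstream of it 34 bins had 4.33%, 4.17% and 4.06%, a ratio of 1.89, 1.78 and 1.98. This comparison was chosen after the profile was seen.

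The change at this start was abrupt at the resolution of the bins. The bin before it had 3.24%, 3.15% and 2.62%, and the bin after it 6.14%, 7.38% and 5.53%. Over 100 kb the mean went from 2.72% upstream to 5.96% downstream in control DDD-seq, from 2.87% to 5.52% after sleep deprivation and from 2.35% to 5.63% by ACE-seq. The highest bin of all 10 genes in each library lay here, 50 kb past the start at chr2:6820001-6830000, with 12.6%, 10.7% and 11.3%. Not every bin downstream was high: that at 620 kb from the 5′ end had 1.56%, 1.81% and 1.80%. A ratio of at least 1.5 across an internal start was found for 11.3% of 459 internal starts with at least 5 bins on both sides in the DDD-seq control, and for 3 of the 6 in the genes described here. Of these 3, 2 are starts of Celf2 and share most of their bins: the start 315 kb from the 5′ end, with 6 CG, also gave 1.79, 1.89 and 1.93. The start at 675 kb gave 1.13, 1.13 and 1.05. The bins downstream of the start at 315 kb include the high bins past the CG-rich start. Over 100 kb, the level at 315 kb went from 2.14%, 1.96% and 1.92% upstream to 2.55%, 2.99% and 2.53% downstream. At 675 kb it went from 5.81%, 5.47% and 6.04% to 4.16%, 4.0% and 3.41%. Whether CG content bears on these ratios was not tested. The 6 internal starts include the only annotated window of Rbfox3, which lies inside its gene body.

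**Figure D2:**
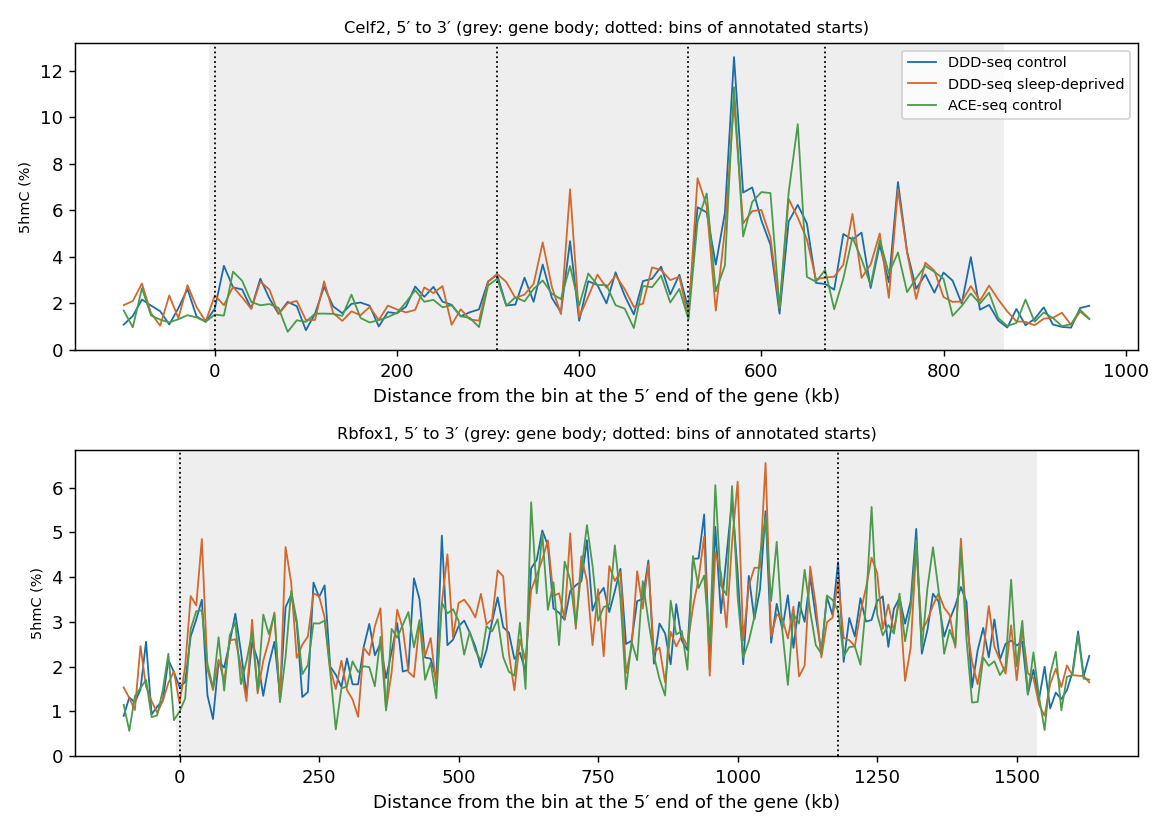
5hmC level in percent per 10 kb bin (vertical axis) against distance from the 5′ end in kb for Celf2 and Rbfox1 in the 3 libraries (colours), with the gene body shaded and the bins of annotated starts dotted. In the DDD-seq control, Celf2 averaged 2.29% upstream of the start at 524 kb and 4.33% downstream, where its highest bin had 12.6%. Rbfox1 averaged 2.95% upstream and 2.90% downstream of its internal start.

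Elavl2 and Elavl4 encode the neuronal Hu proteins HuB and HuD, which bind AU-rich elements and stabilise mRNAs. Their levels were alike. Elavl2 (chr4:91211533-91400108) had 2.22% ± 0.15 in control DDD-seq, 2.26% ± 0.19 after sleep deprivation and 2.07% ± 0.16 by ACE-seq over 20 bins, and Elavl4 (chr4:110203737-110351939) had 2.14% ± 0.23, 2.27% ± 0.31 and 2.21% ± 0.23 over 16 bins. The differences of Elavl2 minus Elavl4 were 0.08 ± 0.28, -0.01 ± 0.36 and -0.14 ± 0.28 points. Against the flanks, Elavl4 had 1.54, 1.98 and 1.92 times and Elavl2 1.63, 1.51 and 1.46 times.

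Within Elavl4 the level was low towards the 5′ end and highest in the bin of the internal start. The 7 bins upstream of that start had a mean of 1.57%, 1.58% and 1.51%, and the 8 bins downstream 2.37%, 2.40% and 2.53%, a ratio of 1.51, 1.52 and 1.67. The bin of the internal start itself, chr4:110280001-110290000, was the highest bin of the gene in all 3 libraries, with 4.29%, 5.98% and 4.50%. This start has only 5 CG in its window. The bin of the first start, with 23 CG, had 0.995%, 1.63% and 1.27%. In Elavl2 the lowest bin of the DDD-seq control, chr4:91370001-91380000, holds 2 starts, with 18 and 25 CG, and had 1.28%, 1.37% and 1.28%.

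Across the 8 genes with a promoter window, the bin of the first start lay below the gene-body level in 6 in control DDD-seq, 6 after sleep deprivation and 7 by ACE-seq. The background was 66.5%, 69.3% and 64.1% of 5247 genes, and with 8 genes little can be read from the counts. Among those genes, first starts with at least 20 CG had a median of 0.84 times the gene-body level in the DDD-seq control (2694 genes) and those with fewer than 10 CG a median of 0.95 times (1395 genes). The exceptions in control DDD-seq were Khdrbs2 (2.44% against a body level of 1.72%) and Elavl2 (3.0% against 2.22%). After sleep deprivation they were Khdrbs2 (1.62% against 1.60%) and Msi2 (2.45% against 1.94%), and by ACE-seq Khdrbs2 (2.21% against 1.59%). Only Khdrbs2 was an exception in all 3 libraries. The window of Rbfox3, its only one, lies 151 kb inside its gene body and is counted both here and among the internal starts. A bin of 10 kb is far wider than a promoter, so these values describe the surroundings of a start.

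Khdrbs2 and Msi2, with Rbfox3, made up the lower end of this set, although all 3 lay above the median of all genes. Khdrbs2 encodes SLM1, a STAR-family protein that regulates alternative splicing of neurexins (chr1:32172602-32705224). It had the lowest level of the set, 1.72% ± 0.10 in control DDD-seq, 1.60% ± 0.08 after sleep deprivation and 1.59% ± 0.10 by ACE-seq over 54 bins. Khdrbs2 thus lay below the medians of genes of at least 20 bins (1.74%, 1.73% and 1.69%). The ratio to its flanks was 1.102, 1.21 and 1.14, and only 48.1% of its bins lay above the flank mean in the DDD-seq control. In that library the flank at lower coordinates had 1.82%, more than the body, and the other flank 1.31%. Msi2 encodes Musashi 2, a translational regulator known from stem and progenitor cells (chr11:88339382-88718306). It had 1.95% ± 0.07, 1.94% ± 0.08 and 1.92% ± 0.10 over 39 bins, and 1.38, 1.39 and 1.37 times its flanks. The elevation of Msi2 was spread over the gene: 92.3% of its bins exceeded the flank mean in the DDD-seq control and their spread was the smallest of the set at 22.3% of the mean. Khdrbs2 shared 3 bins with the predicted genes Gm9839 and Gm5415.

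**Figure D3:**
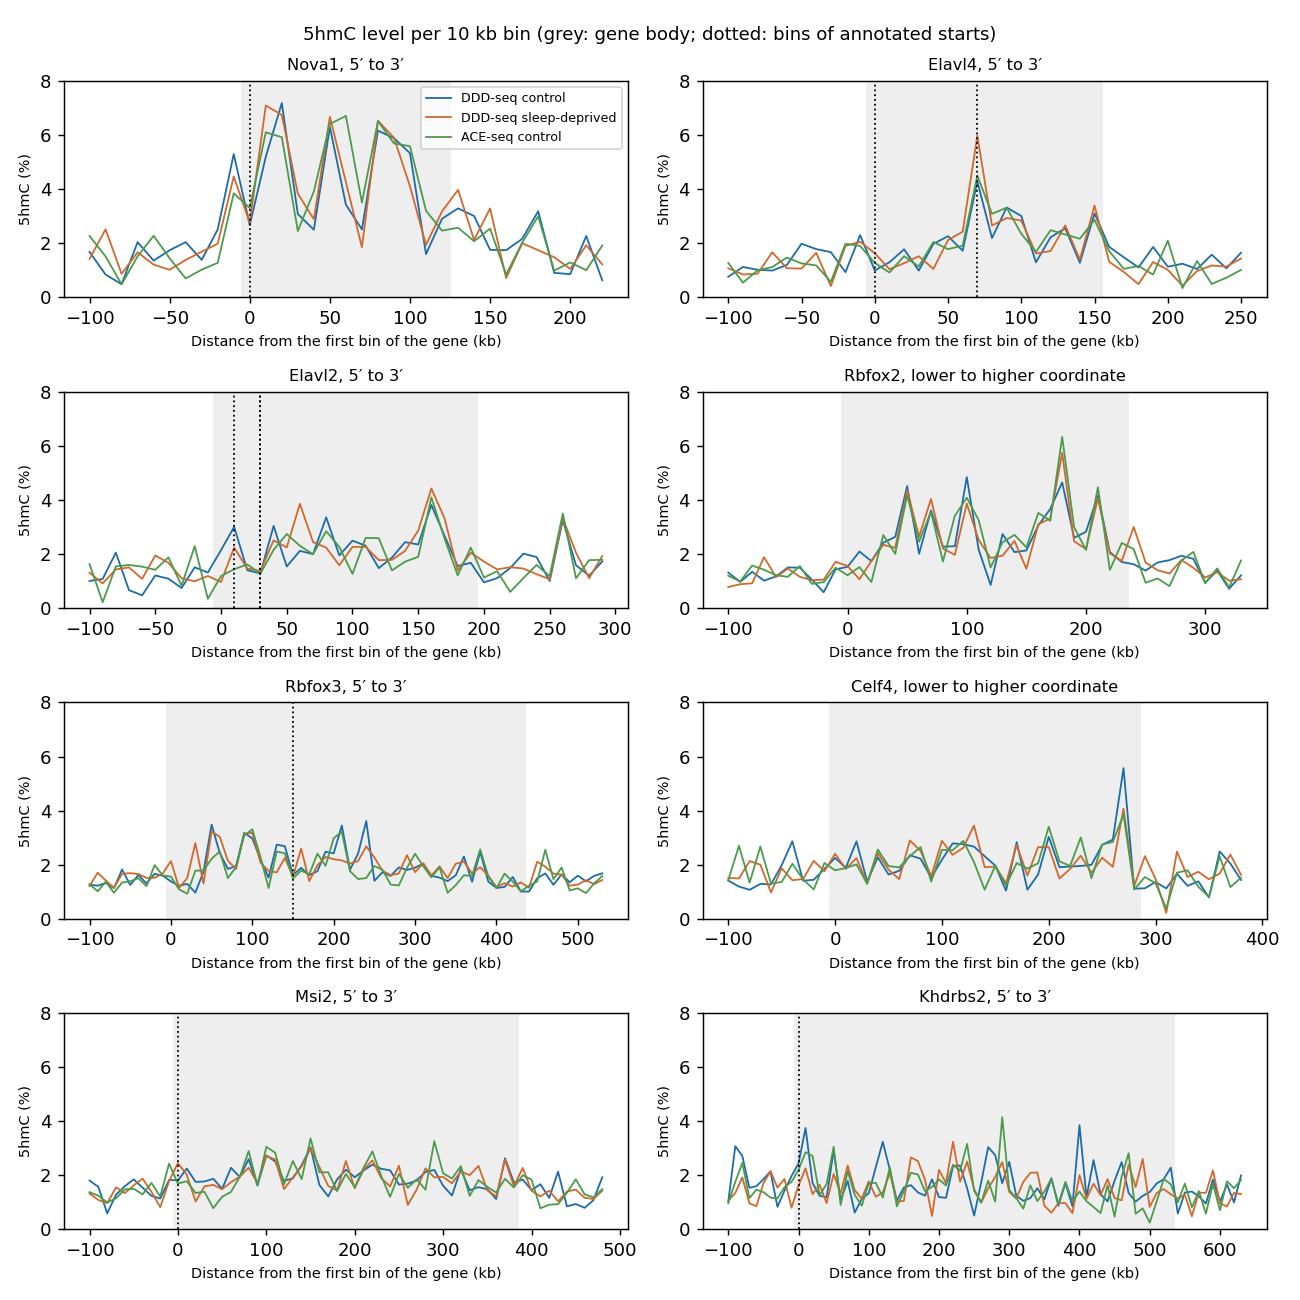
5hmC level in percent per 10 kb bin (vertical axes, all to 8%) against distance in kb from the first bin of each of the other 8 genes, in the 3 libraries (colours), with gene bodies shaded and bins of annotated starts dotted; Rbfox2 and Celf4 run from lower to higher coordinate. Nova1 ranged from 1.60% to 7.19% in the DDD-seq control, Elavl4 peaked at its internal start with 4.29% to 5.98%, and Khdrbs2 had a body level 1.102 to 1.21 times its flanks.

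The order of the 10 genes was clear mainly at its top. In the DDD-seq control it ran Nova1, Celf2, Rbfox1, Rbfox2, Celf4, Elavl2, Elavl4, Msi2, Rbfox3 and Khdrbs2. Among neighbours in this order, only Nova1 and Celf2 differed by more than 2 SE (1.13 ± 0.55 points), and all other neighbours differed by less. Nova1 and the gene next below it also differed by more than 2 SE after sleep deprivation (Celf2, 1.40 ± 0.56 points) and by ACE-seq (Rbfox1, 1.90 ± 0.46 points). After sleep deprivation Msi2 exceeded Khdrbs2 by 0.34 ± 0.11 points as well. A level of at least 3% was reached by Nova1 and Celf2 in the DDD-seq control, where the background was 6.08% of genes, by the same 2 in the sleep-deprived library (5.69%) and by Nova1 alone in the ACE-seq control (5.57%). Among the 1092 genes of at least 20 bins, Celf2 ranked 102nd in the DDD-seq control and Rbfox1, with 2.95%, 122nd. A level of 3% was thus more common among genes of this length than among all genes. Celf2 fell to 2.97% in the DDD-seq control without its highest bin, and its median over bins was 2.66%. A body of at least 1.5 times the flanks was found for 6, 6 and 5 of the genes. The background was 17.8%, 16.7% and 18.3% of genes of at least 5 bins, and 25.5%, 24.9% and 27.2% of those of at least 20 bins, to which 8 of the 10 belong. The 5 genes that passed in all 3 were Nova1, Celf2, Rbfox1, Rbfox2 and Elavl4, and Elavl4 had 1.33 with flanks of 50 kb and 1.47 with flanks free of genes in the DDD-seq control.

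Relatives of these genes also ranged widely. Of 10 further members of the same families, 7 had at least 5 bins, with a median of 1.83% in the DDD-seq control. There, 3 of the 7 reached 1.5 times their flanks, against 17.8% of all genes. Celf1 was the highest of them, with 4.04% ± 0.53 in control DDD-seq, 4.54% ± 0.71 after sleep deprivation and 3.64% ± 0.62 by ACE-seq (8 bins). Khdrbs1 had 2.02% in the DDD-seq control, Elavl1 1.85%, Nova2 1.83% and Khdrbs3 1.75%. Elavl3 had 1.34% there, 1.66% after sleep deprivation and 1.71% by ACE-seq. Msi1, the close relative of Msi2, was the lowest in the DDD-seq control with 1.29%, 0.746 times its flanks. Thus members of a family could lie far apart, as Nova1 and Nova2 did (4.21% and 1.83%), although Nova2 has only 5 bins. Celf3, Celf5 and Celf6 were too short to be measured.

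A wider list of 46 RNA regulators was grouped as neuronal by name, without a check of the cells that express them. Of these, 27 had at least 5 bins, with a median of 2.41% in the DDD-seq control. At least 3% was reached by 12 of the 27 there, by 11 in the sleep-deprived library and by 13 in the ACE-seq control. The background at 3% was 6.08%, 5.69% and 5.57% of all genes. In each library 16 of the 27 reached 1.5 times their flanks, against 17.8%, 16.7% and 18.3% of all genes. The highest were Cpeb4, a regulator of cytoplasmic polyadenylation, with 5.23%, the STAR-family gene Qk with 4.95%, Celf1, which is also counted above, and the splicing factor gene Mbnl1 with 3.96%. At the lower end in the DDD-seq control were Stau2 with 1.60%, Raver2 with 1.60%, Rbms3 with 1.46% over 106 bins, and Cpeb1 with 1.07%. Cpeb1 had 1.22% after sleep deprivation and 1.52% by ACE-seq. The low level of Rbms3, a gene of more than 1 Mb, contrasts with that of Rbfox1.

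Sleep-deprived and control libraries were compared to ask whether 5hmC over these genes differed after sleep loss. No gene of the 10 differed by a ratio of 1.1 or more in either direction. The background was 32.7% of all genes, 15.8% higher and 16.9% lower. Among genes of at least 20 bins, to which 8 of the 10 belong, the share was 10.2%, with 5.4% higher and 4.76% lower. A count of 0 is near the background for so few genes of this length. Of the 10, 5 lay higher and 5 lower, and their median difference was 0.0012 points. The share of all genes past 2 SE over bins was not computed, and no difference of the 10 reached that bound. Nova1 had the largest, 0.23 ± 0.21 points higher in the sleep-deprived library (10 of 13 bins higher), followed by Khdrbs2 with -0.12 ± 0.12 and Elavl4 with 0.12 ± 0.16. The difference was 0.02 ± 0.06 points at Rbfox1 (79 bins higher, 75 lower), -0.07 ± 0.11 at Rbfox2 and 0.04 ± 0.08 at Rbfox3. Celf2 had -0.04 ± 0.08, Celf4 -0.04 ± 0.10, Elavl2 0.03 ± 0.15 and Msi2 -0.02 ± 0.06. When medians over bins were used, Nova1 was 0.68 points higher in the sleep-deprived library, which passed the ratio of 1.1. With 1 library per condition, a difference in either direction cannot be told apart from one between animals or preparations.

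Inside the genes, larger local differences occurred. The window of 5 bins with the largest difference lay in the peak of Celf2, chr2:6800001-6850000, where the sleep-deprived library had 5.78% and the DDD-seq control 7.18%, a difference of -1.40 points. The ACE-seq control, with 5.74%, was also lower than the DDD-seq control there. This was 1 of 10 genes with a window differing by at least 1 point, against a background of 5.85% of genes of at least 10 bins. Khdrbs2 had a window at -0.80 points, Rbfox1 one at 0.80 points, and the largest window differences of the other 7 lay between -0.64 and 0.60 points.

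The ACE-seq and DDD-seq controls were compared to ask how far the methods give the same profile. ACE-seq was lower at 7 of the 10 genes, with a median difference of -0.084 points. Over all genes the median difference was -0.046 points, and the autosomal median of the ACE-seq library was lower, 1.34% against 1.38%. With libraries scaled to these medians, 6 of the 10 were lower and 4 higher, Msi2 turned from -0.03 to 0.02 points, and the median difference was -0.011 points. Nova1 alone passed a ratio of 1.1, with 0.54 ± 0.32 points more in ACE-seq (9 of 13 bins higher), against a background of 38.8% of genes, 13.2% higher and 25.6% lower. Among genes of at least 20 bins, 15.5% passed it, 2.56% higher and 12.9% lower. Unscaled, Celf2 alone differed by more than 2 SE over bins, with -0.25 ± 0.10 points (51 of 87 bins lower in ACE-seq). The share of all genes past 2 SE was not computed here either. After scaling Celf2 had -0.17 ± 0.10 points, within 2 SE, and Nova1 0.68 ± 0.32, beyond it. For the other 8 genes the unscaled difference lay between -0.16 and 0.08 points. Both comparisons share the DDD-seq control library. Windows of 5 bins differed by at least 1 point in 2 genes, against 7.73% of genes: ACE-seq was 1.68 points higher at chr2:6750001-6800000 in Celf2 and 1.23 points higher at chr12:46730001-46780000 in Nova1.

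**Figure D4:**
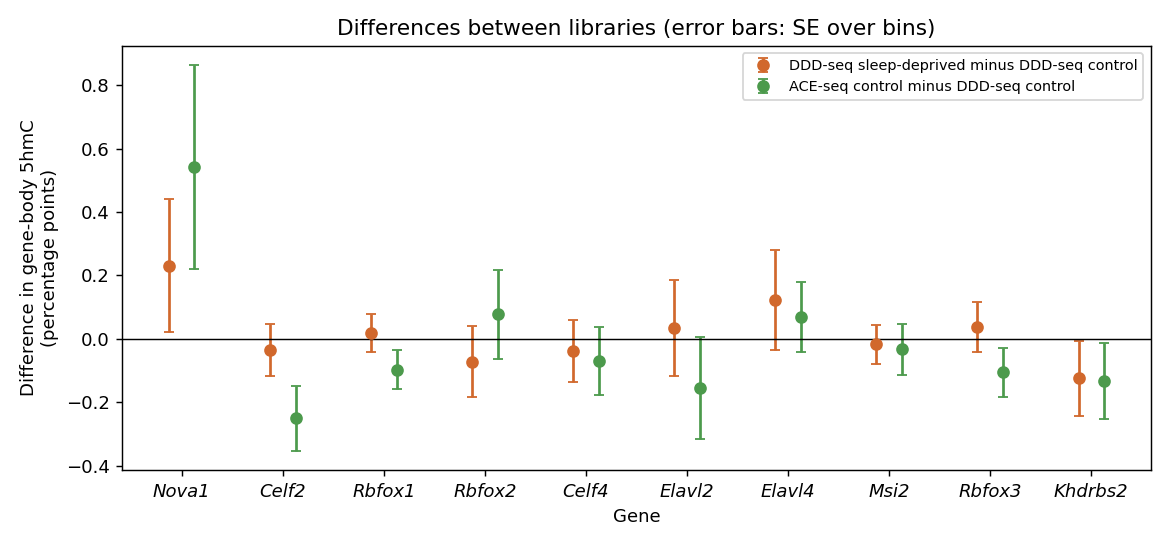
Difference in gene-body 5hmC in percentage points (vertical axis) for each gene, sleep-deprived minus control by DDD-seq and ACE-seq minus DDD-seq control, with SE over bins as error bars. Sleep-deprived differences lay between -0.12 and 0.23 points, each within 2 SE of 0, and ACE-seq differences between -0.25 at Celf2 and 0.54 at Nova1.

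The shape along a gene was most alike between libraries at Nova1, Celf2, Rbfox2 and Elavl4 and least alike at Khdrbs2. Across the bins of a gene, which share the library and its depth, Pearson's r between the DDD-seq control and the sleep-deprived library was 0.92 at Nova1 (13 bins), 0.91 at Celf2 (87), 0.87 at Rbfox2 (24) and 0.87 at Elavl4 (16). It was 0.79 at Celf4 (29), 0.73 at Rbfox1 (154), 0.65 at Rbfox3 (44), 0.65 at Msi2 (39) and 0.62 at Elavl2 (20), and lowest at Khdrbs2 with 0.19 (54). Between DDD-seq and ACE-seq controls it ranged from 0.32 at Khdrbs2 to 0.89 at Elavl4. The highest bin of Khdrbs2 in the DDD-seq control was not high elsewhere: it had 3.86% there but 2.01% after sleep deprivation and 1.40% by ACE-seq. The highest bin of Celf2 was the same in all 3. The depth behind each bin is unknown, so how much of the scatter in low genes comes from counting was not tested.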

How the data were processed

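5hmC was measured in genomic DNA of mouse cerebellum in 3 libraries, 1 per group. The authors deposited a table with a fraction of cytosines read as 5hmC per 10 kb bin and library, which was multiplied by 100 to give percent. The tools named are Bismark, Trimmomatic and FastQC, per the submitters' processing notes. The notes name hg19, a human build, whereas the bins cover mouse chromosomes and were treated as GRCm38. Per the file headers, the DDD-seq names end in "all", and whether several runs stand behind them is unknown. Averaging, cytosine contexts and coverage filters are likewise not given in the sources used here. No read counts are held there, so depth is unknown and no interval or detection limit is given.

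Of 264399 bins, the 262974 with a value in all libraries were used. Gene bodies came from a RefSeq table of GRCm38.p6. A bin belonged to a gene when it overlapped it by at least 1 bp, and genes needed at least 5 bins. That table gives no exons, so introns and exons were not separated. Starts came from a RefSeq promoter table, merged within 1 kb. Its minus-strand windows were checked to read in the gene's direction, and Rbfox2 and Celf4 were laid out by coordinate.

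No test was possible with 1 library per group. Differences were taken bin by bin, with SE over bins. Counts used fixed bounds (3% for a level, 1.5 times for flanks, 1.1 times between libraries). The 10 genes, all their paralogs and the 4 highest and lowest of the wider list are named. Of the list of RNA regulators known mainly outside neurons, the 2 highest and 2 lowest are named. The genes and lists were chosen with earlier results of these data known. The comparison across internal starts, the CG counts and the window bound of 1 point were chosen after the profiles were seen. The code was tested on simulated data. Python 3.11.15, numpy 2.4.6, pandas 2.3.3 and matplotlib 3.10.9 were used.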

Additional observations from a re-analysis of the deposited data

How the results depend on the processing

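With 1 library per group, none could be left out. No paired analysis was possible because each group has only 1 library. Alternatives for single genes were judged against 2 SE over bins: of 193 values, 58 were identical because the alternative removed no bin or changed nothing, 124 others stayed within it and 11 moved beyond. Some counts of genes depended on single bins or on the average used. The count of genes at or above 3% in the DDD-seq control, 2 with means, was 1 with medians over bins and 1 without the highest bin of each gene, where Celf2 dropped out. The cause was not tested. The count past a ratio of 1.1 with medians over bins was 1 for sleep-deprived against control (0 with means) and 2 for ACE-seq against DDD-seq (1 with means). Shares over all genes were computed with means only, so the counts with medians have no background. Flanks of 50 or 200 kb, flanks without genes, or medians gave 5 to 7 genes at or above 1.5 times the flanks (6 as reported). Without genic flank bins Celf4 (1.52) replaced Elavl4. Nova1 rests on 13 bins, and with medians ACE-seq exceeded control DDD-seq there by 2.16 points. The ratio across the internal start of Celf2 was 1.78 without the highest bin, 1.99 with medians and 2.19 over 100 kb, alternatives added after the data were seen. Scaling libraries to their autosomal median left the counts past a ratio of 1.1 as they were. It changed the ACE-seq comparison to 4 genes higher and 6 lower (3 and 7 unscaled), moved the call beyond 2 SE from Celf2 to Nova1, and turned Msi2 to 0.02 points.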

Other observations

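Genes for RNA-binding proteins known mainly from other tissues lay mostly below the all-gene median of 1.54% in the DDD-seq control. Of 16 such genes, 11 had at least 5 bins, and their median was 1.22% in control DDD-seq, 1.29% after sleep deprivation and 1.19% by ACE-seq. In the DDD-seq control 1 of the 11 exceeded that median. None of the 11 reached 3% or 1.5 times its flanks in any of the 3 libraries, against 6.08% and 17.8% of all genes in the DDD-seq control, so that a count of 0 at 3% is near the background for 11 genes. The highest were Lin28b, a regulator of let-7 microRNAs, with 1.55% in the DDD-seq control, and Igf2bp3, a fetal mRNA-binding protein gene, with 1.50%. The lowest were the germ-cell helicase gene Ddx4 with 1.13% and the epithelial splicing factor gene Esrp1 with 0.97%. A heart splicing factor gene of 21 bins, Rbm20, named after its values were seen, had 1.24% ± 0.05, 1.29% ± 0.06 and 1.26% ± 0.07, 0.605, 0.616 and 0.635 times its flanks.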
